A study of Arabidopsis thaliana with 6 samples.

Results

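The A-type ARR genes of Arabidopsis thaliana encode response regulators that act as brakes on cytokinin signalling. The 10 genes of the family, ARR3 to ARR9 and ARR15 to ARR17, were chosen by their locus IDs, and 8 of them had values among the 21125 genes measured in root tips of wild-type and scl28-3 plants. Expression of ARR16 (AT2G40670) and ARR17 (AT3G56380) was not analysed here. No A-type ARR was called different between the genotypes, where 0.0727% of all genes tested were called. ARR8, ARR4 and ARR3 carried most of the family's reads. ARR3 was the only member whose values did not overlap between the genotypes, which was also so for 10.4% of all genes tested. Its mean was 43.9 CPM (reads of a gene after every library is scaled to the same total) in wild type, against 38.5 CPM in scl28-3, with a limma adjusted p = 0.995.

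RNA came from the last 2 mm or so of roots of 6-day-old plants grown at 21 °C in continuous light, with around 300 tips pooled for each library. There were 3 wild-type libraries and 3 libraries from scl28-3, which carries a mutant allele of SCL28 (AT1G63100), a GRAS-family transcription factor gene. No hormone treatment is given for either group, and the plates held sucrose. The submitters call the samples of a genotype biological replicates. The comparison asks which of these transcripts differ in the root tip when SCL28 is mutated.

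Cytokinin is sensed by membrane histidine kinases, and the phosphate passes through phosphotransfer proteins to response regulators in the nucleus. Phosphorylated B-type ARR proteins are transcription factors that switch on the A-type ARR genes. The A-type proteins have a receiver domain and no DNA-binding domain, and they damp the same pathway. Their transcripts rise within minutes of cytokinin and are widely used as a readout of signalling, and in the root tip cytokinin favours the exit of cells from division into differentiation.

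As a check of the labels, SCL28 transcript was at 44.5, 42.59 and 42.38 CPM in the wild-type libraries, against 17.72, 14.92 and 13.65 CPM in the mutant, a log2 difference of -1.48 ± 0.12 (SE) with a limma adjusted p = 0.0022. Libraries held between 10399899 and 16780424 reads, and each scl28-3 library was deeper than each wild-type library. All 9 root tip markers were above 0 in every library, among them SCR at 64.9 ± 12.8 CPM in wild type, against 65.8 ± 1.41 CPM in scl28-3, and SHR at 39 ± 3.27 and 43.5 ± 2.35 CPM (SD, n = 3 each). The summed level of 6 leaf photosynthesis markers was between 12.1 and 21.6 CPM. Of these, LHCB2.1 alone was at 0 in any library, and LHCB1.3 had the highest mean, with values from 3.97 to 10.19 CPM. Wild-type library 1 stood apart from the others on the first principal component (-35.6, against -9.44 to 19.5 in the rest), which held 44.3% of the variance. The log2 difference was above 0 for 8 of 8 endodermis, 8 of 8 root hair, 7 of 7 tested xylem and 6 of 7 phloem markers. None of these was called by limma, where 0.0727% of all genes were, and 1 endodermis and 1 root hair marker had an unadjusted p under 0.05, as did 4.37% of all genes. The summed levels overlapped between the genotypes for each list, at 147 to 375 CPM in wild type, against 297 to 447 CPM in the mutant, for endodermis, 272 to 356 and 329 to 419 CPM for root hair, 74.2 to 97.9 and 87.8 to 115 CPM for xylem, and 32.6 to 36.2 and 33.9 to 42 CPM for phloem. In wild-type library 1 the summed level of 8 endodermis markers was 147 CPM, where the other libraries lay between 282 and 447 CPM. Because the tips were measured in bulk, fewer cells of a type and less RNA per cell cannot be told apart.

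The genes form closely related pairs, and their coding sequences in TAIR10.1 paired ARR3 with ARR4 (83.2% identical bases), ARR5 with ARR6 (81.4%), ARR7 with ARR15 (79%), ARR8 with ARR9 (81.3%) and ARR16 with ARR17 (83.4%). All other pairs of members were between 63.1% and 75.1% identical. The longest run of exon bases shared without a mismatch was 41 for ARR3 and ARR4 and 41 for ARR8 and ARR9, and at most 23 between members that are not each other's closest relative. A read lying wholly within such a run could not be assigned to a single member.

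The bases before the gene start are shown for 4 members that stand at the ends of the family's range: ARR8, with the highest CPM, ARR3, whose values did not overlap between genotypes, ARR5, the most variable of the well-measured members, and ARR7, with the lowest CPM. Each is the 250 bases 5′ of the start annotated in TAIR10.1, read on the gene's own strand, at chr2:17221590-17221839 (plus), chr1:22067234-22067483 (minus), chr3:17760951-17761200 (minus) and chr1:6579315-6579564 (minus). Capitals mark AGATT on either strand (AATCT when reversed), the core that B-type ARR proteins prefer in vitro.
ARR8: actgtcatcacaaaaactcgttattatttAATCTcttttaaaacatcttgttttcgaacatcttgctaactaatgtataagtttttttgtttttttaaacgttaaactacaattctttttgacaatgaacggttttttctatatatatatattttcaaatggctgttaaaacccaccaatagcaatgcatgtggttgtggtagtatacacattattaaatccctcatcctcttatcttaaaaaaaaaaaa
ARR3: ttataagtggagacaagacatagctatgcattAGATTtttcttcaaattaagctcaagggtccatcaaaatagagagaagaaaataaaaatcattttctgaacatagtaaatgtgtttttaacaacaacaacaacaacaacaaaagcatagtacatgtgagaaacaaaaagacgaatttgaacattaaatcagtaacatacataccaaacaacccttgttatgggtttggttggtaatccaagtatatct
ARR5: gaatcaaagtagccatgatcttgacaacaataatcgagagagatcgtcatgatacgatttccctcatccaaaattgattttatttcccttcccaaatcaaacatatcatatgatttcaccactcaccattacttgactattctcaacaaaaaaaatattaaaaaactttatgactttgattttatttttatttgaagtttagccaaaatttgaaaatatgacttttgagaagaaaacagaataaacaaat
ARR7: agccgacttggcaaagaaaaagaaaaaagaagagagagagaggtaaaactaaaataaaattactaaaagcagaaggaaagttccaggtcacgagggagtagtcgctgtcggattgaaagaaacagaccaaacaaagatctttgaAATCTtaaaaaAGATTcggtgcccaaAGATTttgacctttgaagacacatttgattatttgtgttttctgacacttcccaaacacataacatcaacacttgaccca
ARR7 held 3 such matches in these bases, at 106, 95 and 80 bases before the start, ARR3 and ARR8 held 1 each, and ARR5 held none.

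In a window from 250 bases before to 50 bases after the start, 9 of the 10 members held AGATT on either strand, where 69.7% of the windows of 27437 protein-coding genes did. The mean number of matches was 2.2 in the members and 1.23 in all windows. ARR6, ARR7 and ARR16 held 4 each, and ARR5 was the member with none. In the 250 bases before the start alone, 7 of 10 members held a match, against 63.7% of all genes. The mean number of matches there was 1.3 in the members and 1.04 in all windows. The longer form AGATACG, which cannot overlap AGATT at the same start, was in 0 of 10 member windows and in 2.04% of all. These matches describe letters in a short window and show neither binding nor its absence.

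Levels within the family fell into a high, a middle and a low tier. ARR8, ARR4 and ARR3 together made up 77.4% of the family's CPM, and ARR7 and ARR15 made up 0.321% and 0.469%. Per kilobase of exon, ARR3 stood at 31.4 ± 3.01 CPM per kb (SD over 6 libraries), ARR8 at 29.5 ± 2.34 and ARR4 at 27.2 ± 2.35 CPM per kb. The ranges of these neighbours overlapped, so their order is not set beyond the spread between libraries. ARR5 followed at 11 ± 3.16, ARR9 at 10.9 ± 1.55 and ARR6 at 7.35 ± 1.48 CPM per kb, again with overlapping ranges from one to the next. ARR15 at 0.945 ± 0.356 and ARR7 at 0.741 ± 0.169 CPM per kb formed the low tier. Per kilobase of exon the tiers did not overlap: in mean CPM per kb ARR4 was 2.47 times ARR5, and ARR6 was 7.78 times ARR15. When levels were set per coding length, ranks changed within the high and middle tiers, and no member's mean moved to another tier. The gap between these tiers narrowed, with ARR3 at a mean of 42.4 and ARR9 at 29.3 CPM per coding kb. On that scale the library ranges of ARR3 and ARR5 overlapped, so the high and middle tiers were not separate.

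**Figure D1:**
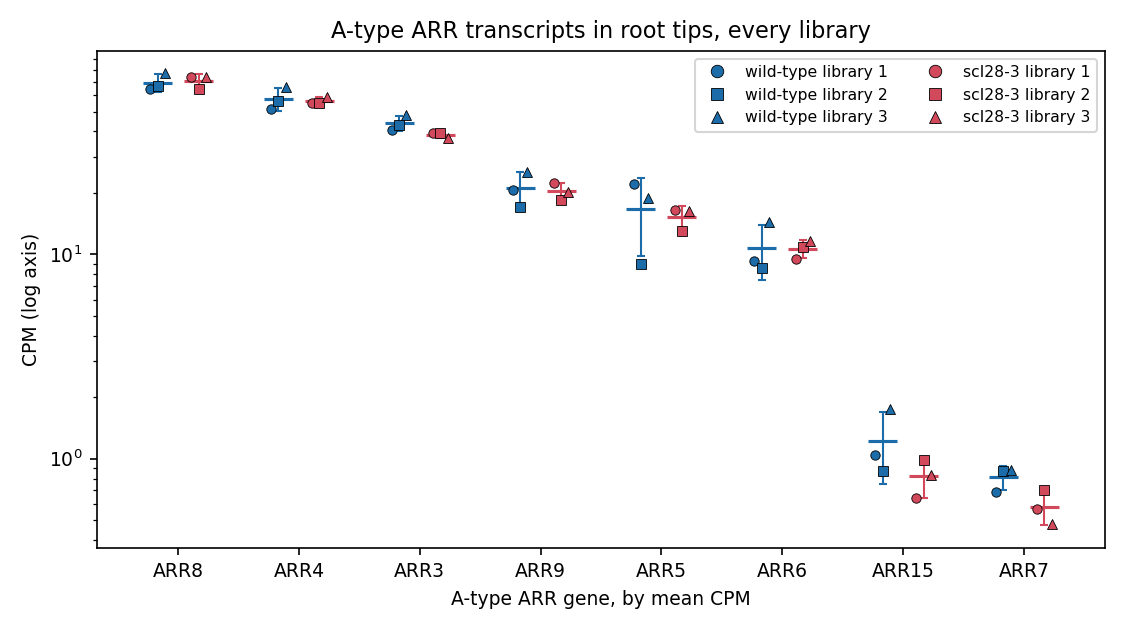
CPM (log axis) of the 8 A-type ARR genes with values, ordered by mean CPM, with a symbol for each library, a horizontal bar for the genotype mean and error bars of 1 SD (n = 3). The genotypes interleave for 7 of 8 genes; ARR3 is the exception, and ARR15 and ARR7 lie about an order of magnitude below the rest.

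ARR3 and ARR4 are known for setting the period of the circadian clock, and ARR4 also for binding the light receptor phytochrome B. ARR3 (AT1G59940), at chr1:22065617-22067233 in TAIR10.1 (minus strand) with 5 exons, was at 40.61, 42.98 and 48.17 CPM in the wild-type libraries, against 39.29, 39.2 and 36.95 CPM in the mutant. The scl28-3 libraries were all below the lowest wild-type library. The log2 difference was -0.20 ± 0.09 (SE), with a 95% confidence interval from -0.42 to 0.0067 and a limma adjusted p = 0.995 over all genes. No overlap between genotypes was found for 10.4% of all 17879 genes tested, so 1 of 7 tested members is close to that background.

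ARR4 (AT1G10470), at chr1:3441988-3444360 (minus strand), was at 51.24, 56.44 and 65.72 CPM in the wild-type libraries, against 55.01, 55.03 and 59.05 CPM in the mutant. The scl28-3 values lay inside the wild-type range. Its log2 difference was -0.05 ± 0.10, with an interval from -0.27 to 0.18. The ratio of ARR3 to ARR4 within a library, which no scaling between libraries can change, was 0.793, 0.762 and 0.733 in the wild-type libraries, against 0.714, 0.712 and 0.626 in the mutant. The ratio was thus lower in each scl28-3 library than in each wild-type library, as was ARR3 itself, so it is not a separate observation. The ratios of ARR5 to ARR6, ARR7 to ARR15 and ARR8 to ARR9 overlapped between the genotypes. The ARR3 to ARR4 ratio was singled out after its values were seen. With 3 against 3 libraries an exact permutation test cannot give a two-sided p below 0.1.

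ARR8 and ARR9 are the members known to respond weakly to added cytokinin. ARR8 (AT2G41310), at chr2:17221840-17224880 (plus strand) with 6 exons, was at 64.2, 66.73 and 76.87 CPM in the wild-type libraries, against 74.01, 64.39 and 73.77 CPM in the mutant. The groups overlapped nearly completely, and the log2 difference of 0.01 ± 0.10 had an interval from -0.20 to 0.23, which corresponds to a level in scl28-3 between 0.868 and 1.17 times that of wild type. ARR9 (AT3G57040), at chr3:21109059-21111567 (plus strand), was at 20.56, 17.11 and 25.36 CPM in the wild-type libraries, against 22.36, 18.37 and 20.26 CPM in the mutant. All 3 scl28-3 values of ARR9 lay between the lowest and highest wild-type value, with a log2 difference of -0.05 ± 0.14 and an interval from -0.36 to 0.26. The ARR8 to ARR9 ratio was 3.35 ± 0.477 in wild type and 3.49 ± 0.166 in scl28-3.

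ARR5 and ARR6 are strongly induced by cytokinin, and the ARR5 promoter is a common cytokinin reporter. ARR5 (AT3G48100), at chr3:17758427-17760950 (minus strand), was at 22.12, 8.94 and 18.87 CPM in the wild-type libraries, against 16.5, 13.02 and 16.33 CPM in the mutant. The spread came from wild type, where library 1 held the highest value of the 6 libraries and library 2 the lowest. These values rest on 256 and 93 reads, whose exact 95% Poisson intervals of 19.5 to 25 CPM and 7.22 to 11 CPM cover counting error only and do not meet. The log2 difference of -0.05 ± 0.27 had an interval from -0.66 to 0.56, the widest among members above 2 CPM, and it turned to 0.19 when wild-type library 1 was left out. Leaving out wild-type library 2 gave -0.42, with an unadjusted p = 0.0229 in limma and an adjusted p = 0.998. Wild-type library 1, with the highest ARR5, was also the library with the lowest endodermis marker sum, whose part in this value was not tested.

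ARR6 (AT5G62920), at chr5:25252007-25254318 (minus strand), was at 9.25, 8.56 and 14.48 CPM in the wild-type libraries, against 9.5, 10.91 and 11.62 CPM in the mutant. Wild-type library 3 was the highest and the 2 other wild-type libraries were below all scl28-3 libraries. The log2 difference was 0.0035 ± 0.18, with an interval from -0.40 to 0.41. The ARR5 to ARR6 ratio ranged from 1.04 to 2.39 within wild type, wider than its range of 1.19 to 1.74 in scl28-3.

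ARR7 and ARR15 are cytokinin-induced genes that auxin activates in the founder cells of the embryonic root, and ARR7 is also a target of WUSCHEL in the shoot meristem. ARR15 (AT1G74890), at chr1:28131447-28133025 (minus strand), was at 1.04, 0.87 and 1.75 CPM in the wild-type libraries, against 0.64, 0.99 and 0.83 CPM in the mutant. These values rest on 9 to 20 reads a library, and wild-type library 3 stood above the other 5. The log2 difference of -0.37 ± 0.26 on the scale of log2(CPM + 0.5), which understates changes of low genes, had an interval from -0.94 to 0.21 and a limma adjusted p = 0.995. The value was -0.59 with edgeR's quasi-likelihood test on recovered reads and -0.17 without wild-type library 3.

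ARR7 (AT1G19050), at chr1:6577833-6579314 (minus strand), was at 0.69, 0.87 and 0.88 CPM in the wild-type libraries, against 0.57, 0.7 and 0.48 CPM in the mutant, from 8 to 10 reads a library. Of the scl28-3 libraries, library 2 alone was above the lowest wild-type library. It was the 1 member with values that did not pass the filter on low counts. In a fit of all 21125 genes with no filter, where 0.071% of genes were called, its log2 difference was -0.29 ± 0.17, with an interval from -0.67 to 0.09 and a limma adjusted p = 0.974.

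Across the family, 0 of 7 tested members were called at a limma adjusted p under 0.05, where 0.0727% of all tested genes were called, and edgeR's quasi-likelihood test and DESeq2 also called 0. At an unadjusted p under 0.05 the count was 0 of 7 with each of these 3 tests, against 4.37% of all genes in the limma fit. The log2 difference was below 0 for 5 of 7 members, and below 0 for 47.9% of all genes. The median over the 7 members was -0.05, beside 0.0072 over all tested genes. Summed CPM of the 8 members was 209.7, 202.5 and 252.1 in the wild-type libraries, against 217.9, 202.6 and 219.3 in the mutant ones, or 221 ± 26.8 and 213 ± 9.25 CPM. The 3 scl28-3 sums lay inside the wild-type range as deposited, and after division by TMM factors the sum of scl28-3 library 2 (203 CPM) lay below the lowest wild-type sum (208 CPM). With wild-type library 1 left out, which stood apart on the first principal component, 0 of 8 tested members were called, the members' median was -0.11, and ARR3 was at -0.26 with an unadjusted p = 0.0155 and an adjusted p = 0.432 in limma. In that fit 9.72% of all genes had an unadjusted p under 0.05.

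**Figure D2:**
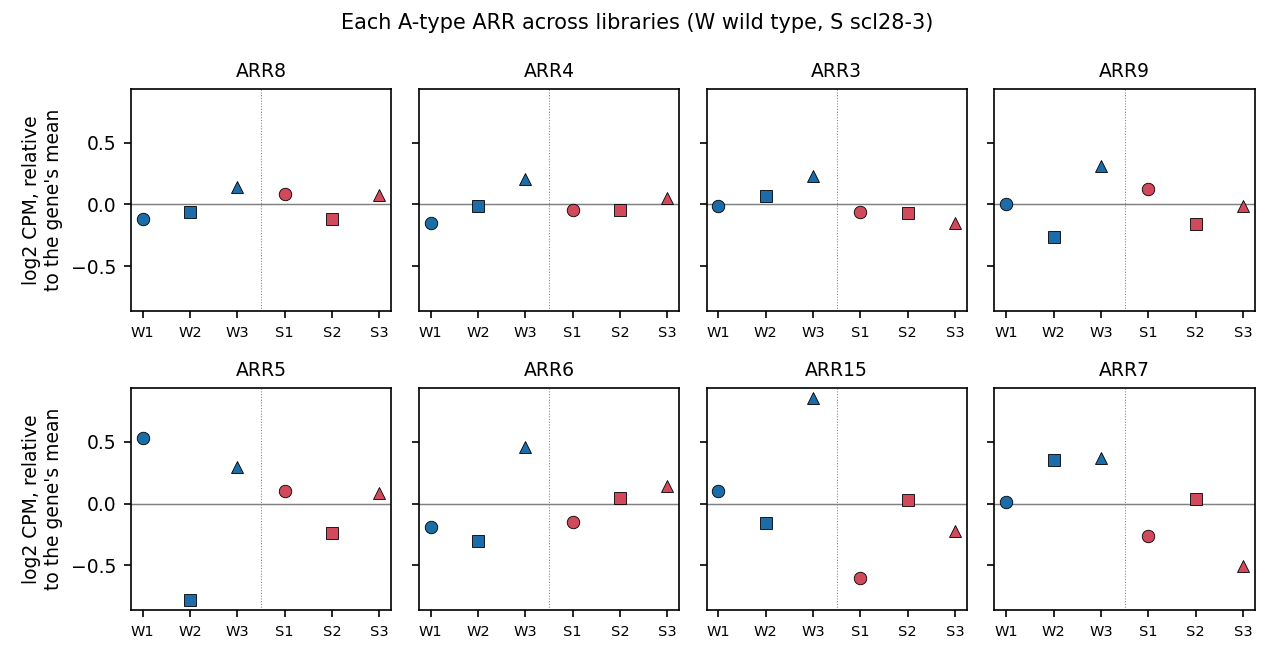
Log2 CPM of each A-type ARR in each library relative to that gene's mean over the 6 libraries, with wild-type libraries (W1 to W3, blue) left of the dotted line and scl28-3 libraries (S1 to S3, red) right of it. Wild-type library 3 (W3) holds the highest value of 7 of the 8 genes, and ARR5, ARR15 and ARR7 vary more than ARR8, ARR4 and ARR3.

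The family sum thus varied more among wild-type than among scl28-3 libraries, and this rests on wild-type library 3. That library was at 252.1 CPM, against 209.7 and 202.5 CPM in the other wild-type libraries and 202.6 to 219.3 CPM in scl28-3. Wild-type library 3 had the highest deposited CPM of 7 of 8 members, all but ARR5, and after division by TMM factors it had the highest of 6. Without that library the members' median log2 difference was 0.07 and 2 of 7 were below 0, while without wild-type library 2 it was -0.17. The endodermis marker sum of 375 CPM and root hair marker sum of 356 CPM of wild-type library 3 were the highest in wild type. Those of scl28-3 library 3 were higher still at 447 and 419 CPM. That scl28-3 library held the highest value of no member, and the part of these markers was not tested. Within genotypes the SD of log2 values was 0.0858 for ARR3, 0.108 for ARR8 and 0.117 for ARR4, below the median of 0.162 over all tested genes. It was 0.199 for ARR9, 0.273 for ARR6, 0.285 for ARR15 and 0.478 for ARR5.

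Members differed in their correlation with the top member, and that of ARR15 rests on 9 to 20 reads a library. Against ARR8, the member with the highest mean CPM, Pearson's r of log2 values over the 6 libraries was 0.708 for ARR4, 0.682 for ARR9 and 0.508 for ARR6, and 0.202 for ARR3, 0.14 for ARR5 and 0.137 for ARR15. The genes outside the family with profiles most like that of ARR8, among 17872 searched, were BCA6, named as a beta carbonic anhydrase (r = 0.985), AT5G16110 (r = 0.977) and FDM3 (r = 0.971). BCA6 was at 8.47, 9.23 and 12.37 CPM in the wild-type libraries, against 10.72, 8.23 and 10.91 CPM in the mutant. These correlations only describe 6 libraries, in which genes share depth and any difference in tissue makeup.

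The steps upstream of the A-type ARR genes were measured in the same libraries. Of 57 genes on lists of cytokinin receptors, carriers, regulators, synthesis and breakdown, 47 had values and 33 were tested. Of the 33, 0 were called by limma, where 0.0727% of all tested genes were called. An unadjusted limma p under 0.05 was found for 2, both below 0, against 4.37% of all genes. The log2 difference was above 0 for 22 and below 0 for 11, with a median of 0.05, and the genotypes did not overlap for 6 of 33, against 10.4% of all genes. The C-type genes ARR22 and ARR24, also on the lists, were not analysed here.

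**Figure D3:**
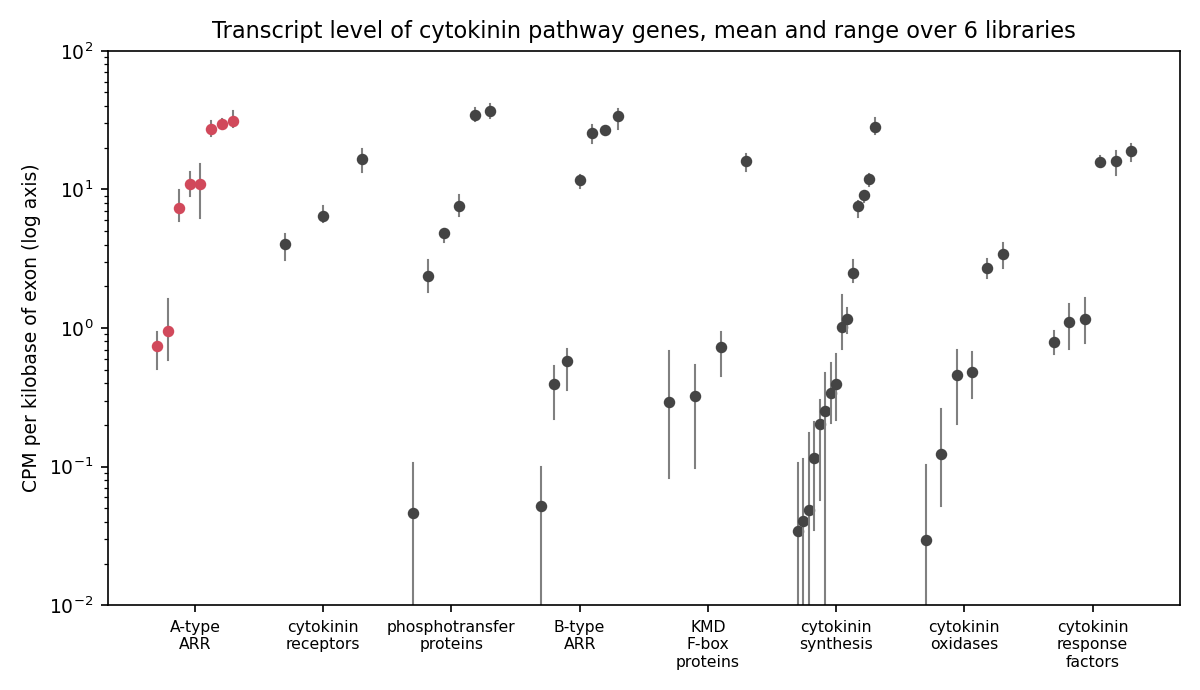
CPM per kilobase of exon (log axis) for each cytokinin pathway gene with values, grouped by role, as the mean (point) and range (line) over all 6 libraries; lines that reach the lower edge run to 0 or below the axis. The A-type ARR genes in red fall into a tier near 30, a tier near 10 and a pair below 1.

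All 3 cytokinin receptors were above 0 in log2 difference, and none was called. AHK4, the receptor with the highest level, was at 89.43, 60.86 and 68.62 CPM in the wild-type libraries, against 83.02, 72.77 and 82.06 CPM in the mutant. AHK3 was at 26.8 ± 0.445 and 31.1 ± 3.7 CPM, a log2 difference of 0.18 ± 0.11 with an interval from -0.06 to 0.43. AHK2 was at 16.7 ± 2.57 and 19.1 ± 1.97 CPM. The genotypes overlapped for each of the 3 receptors.

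Of 5 tested phosphotransfer proteins, which carry phosphate from the receptors to the ARR proteins, 4 were above 0 and 1 below. The one below was AHP5, at 11.92, 10.38 and 12.11 CPM in the wild-type libraries, against 9.57, 8.66 and 8.58 CPM in the mutant. Its values did not overlap, with a log2 difference of -0.36 ± 0.12, an interval from -0.62 to -0.10 and a limma adjusted p = 0.995. AHP3, the most abundant, was at 46.4 ± 2.9 and 51.4 ± 2.41 CPM, also without overlap but higher in scl28-3. The genotypes thus did not overlap for 2 of the 5, against 10.4% of all genes tested.

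B-type ARR genes, the activators of the A-type genes, were above 0 for 5 of 6 tested members, with a median log2 difference of 0.15 and 0 called. ARR1, with the highest CPM (per kilobase of exon ARR10 was highest, at 33.9 CPM per kb, and ARR1 was at 25.5), was at 72.32, 87.59 and 83.45 CPM in the wild-type libraries, against 82.8, 90.15 and 97.79 CPM in the mutant. ARR2 was at 30.93, 29.04 and 27.2 CPM in the wild-type libraries, against 32.79, 33.78 and 32.89 CPM in the mutant, without overlap, with a log2 difference of 0.17 ± 0.10 and an interval from -0.05 to 0.39. ARR11 was low, at 0.753 ± 0.225 and 1.1 ± 0.133 CPM. The genotypes did not overlap for 3 of the 6 (ARR2, ARR11 and ARR14), against 10.4% of all genes tested. ARR14 was as low as ARR11, at 0.777 ± 0.195 and 1.11 ± 0.0436 CPM, so few reads lie behind these 2 genes. KMD F-box proteins mark B-type ARR proteins for degradation, and 2 of 4 were tested, both above 0: KMD2 was at 26.4 ± 4.02 and 28.8 ± 0.875 CPM and KMD4 at 1.03 ± 0.33 and 1.21 ± 0.22 CPM.

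Synthesis genes were mostly low, with 7 of 18 passing the filter, 3 below and 4 above 0. LOG7, which releases active cytokinin, was the highest at 35.5 ± 5.63 CPM in wild type, against 36.9 ± 1.46 CPM in scl28-3, while IPT2 was at 13.3 ± 0.606 and 12.2 ± 1.5 CPM and IPT5 at 1.62 ± 0.367 and 2.12 ± 0.91 CPM. Of the cytokinin oxidases, which break the hormone down, 4 of 7 were tested, and CKX5 was at 8.98 ± 2.03 and 9.7 ± 0.62 CPM and CKX6 at 1.09 ± 0.288 and 0.84 ± 0.355 CPM. None of these genes was called.

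Of the cytokinin response factors, AP2-type transcription factors of which some are induced by cytokinin, 5 of 6 were below 0. CRF1 was at 2.51, 2.4 and 2.9 CPM in the wild-type libraries, against 1.5, 1.62 and 1.37 CPM in the mutant, with no overlap between genotypes. Its log2 difference of -0.65 ± 0.18, with an interval from -1.05 to -0.25, was the furthest from 0 among the family and the pathway lists, and its limma adjusted p was 0.951. CRF2, with the highest CPM (per kilobase of exon CRF4 was highest, at 18.8 CPM per kb, and CRF2 was at 15.7), was at 30.5 ± 2.72 and 29.5 ± 1.06 CPM.

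**Figure D4:**
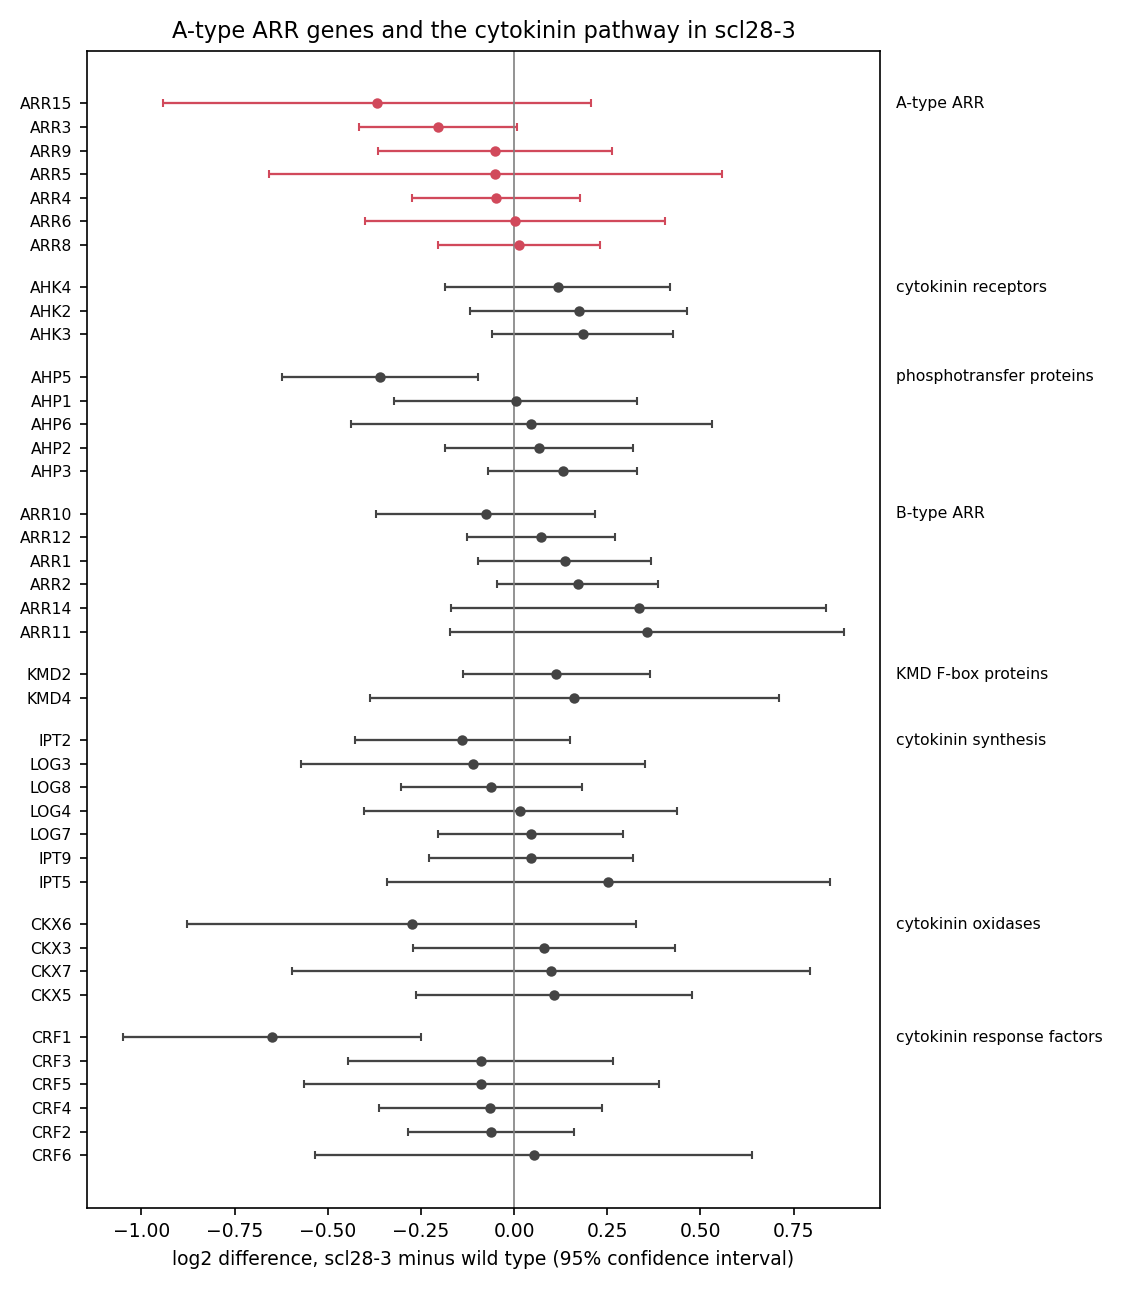
Log2 difference (scl28-3 minus wild type) with its 95% confidence interval from limma for the 7 tested A-type ARR genes (red) and 33 tested cytokinin pathway genes (dark grey), grouped by role. The interval of each A-type ARR includes 0, those of AHP5 and CRF1 lie below 0, and no gene shown was called after adjustment over all genes.

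Overlap with genes on the other strand affects 3 members if counting ignored the strand, which is not given in the sources used here. ARR6 shares 348 bases with AT5G62910, which was 13.56 to 15.97 CPM in the wild-type and 15.72 to 17.52 CPM in the mutant libraries. ARR8 shares 299 bases with AT2G09250 and ARR9 shares 231 bases with AT3G08825, and neither of these was analysed here.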

How the data were processed

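RNA-seq of 6 root tip libraries was used. The deposited values were CPM per gene, per the file headers, rounded to 2 decimals. TAIR10 was the build, and HISAT2 2.0.0, edgeR and HTSeq 0.6.1p1 were among the tools, per the submitters' processing notes; the annotation release, read length and strand setting are not given in the sources used here. Low values stepped by a fixed amount, the worth of 1 read, and division by it gave whole reads for 100% of values in each library (within 0.1 read). A count of 3 reads was between 0.179 and 0.288 CPM.

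The main test was limma 3.58.1 with an intensity trend (R 4.3.3) on log2(CPM + 0.5) after division by TMM factors from edgeR 4.0.16. Genes were kept by filterByExpr on recovered reads (minimum count 10), and 17879 genes passed. Two-sided p-values were adjusted over all tested genes (Benjamini-Hochberg), with a threshold of 0.05. Alternatives were other pseudocounts, scalings and filters, edgeR's quasi-likelihood test, DESeq2 1.42.0, a replicate block and leaving out each library. The steps were tested on simulated data. Locus IDs, exons and upstream bases came from TAIR10.1 (RefSeq), whose locus IDs matched 21020 of 21125 IDs. Protein sequences were not used; coding bases were aligned with Biopython 1.88.

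The members and lists were chosen with earlier results of these data known. Named were all members, SCL28, for each list the 2 tested genes with the lowest unadjusted p and the gene with the highest mean CPM, 2 root tip markers, and the 3 genes most like the top member. ARR10, ARR14 and CRF4 were named besides, for a rank or an overlap.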

Additional observations from a re-analysis of the deposited data

How the results depend on the processing

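No A-type ARR and no cytokinin pathway gene was called under any of the 15 alternatives, and the lowest adjusted p of a member was 0.411. ARR3 stayed below 0 in all of them, from -0.26 to -0.15 on the log2 scale, and had an unadjusted p under 0.05 without wild-type library 1 (limma adjusted p = 0.432) and with the replicate block (0.411), where 9.72% and 11% of all genes did, against 4.37% in the main test. ARR15 also stayed below 0 in the 14 it was tested in, from -0.59 to -0.17. Members near 0 changed sign. ARR6 was at -0.0021 with DESeq2 size factors, -0.0032 with at least 1 CPM in 3 libraries, -0.027 with edgeR's quasi-likelihood test and -0.033 with DESeq2. When a library was left out, ARR4 ran from -0.14 to 0.031, ARR5 from -0.42 to 0.19, ARR6 from -0.12 to 0.21, ARR8 from -0.044 to 0.072 and ARR9 from -0.17 to 0.074. SCL28 stayed called and lower, from -1.59 to -1.40.

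Over all genes, 13 were called lower and 0 higher. With a replicate block by sample number these were 40 and 24, and when a library was left out 5 to 18 were lower (18 without wild-type library 1, and 5 or 6 without any single other library). On recovered reads, edgeR's quasi-likelihood test called 14 and DESeq2 called 18, all lower. The cause was not tested. The deviations from the group means of libraries with the same number had correlations of 0.441, 0.0439 and 0.498. Values on the first principal component rose with number in both genotypes. Neither shows a pairing by number or its absence. ARR7 and ARR15 rest on 8 to 20 reads a library.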
